A study of Homo sapiens with 28 samples.

Results

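Arsenic trioxide (ATO), an inorganic arsenical used as a drug, was compared with no treatment after 24 h in 4 established human cell lines of multiple myeloma, named 8226/S, KMS11, MM.1s and U266. The comparison holds, for each line, the array labelled as 24 h of ATO and the array labelled as control 2, which makes 4 pairs and 8 of the 28 arrays of the study. ATO was given at 2 µM to all 4 lines, and the control 2 cells were untreated and taken at 0 h, so 24 h in culture and 24 h of ATO cannot be told apart. The same study holds ATO for 6 and 48 h at 2 µM, and darinaparsin (DAR), an organic arsenical, for 6 and 24 h, dosed at 2 µM for 8226/S, 3 µM for KMS11 and for MM.1s, and 4 µM for U266, with a further untreated array of each line labelled control 1. All cells grew in RPMI-1640 medium with serum, and the labels name no engineered allele in any line. Each line gave 1 array per condition, so the 4 lines are the replicates (n = 4). Each line is the cells of 1 tumour. For the ATO times, p-values rest on the spread between these lines, pooled by limma over control 2 and 6, 24 and 48 h of ATO. The fit also drew the spread of each gene towards a trend shared by all genes. It is therefore not the spread of the 4 changes at 24 h alone.

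RNA was read on Affymetrix arrays of 54675 probe sets, scaled by the array software so that the trimmed mean of each array was 500.1. A value given as a signal is that scaled brightness, and a log2 change is the mean over the 4 lines of log2(signal + 29) after 24 h of ATO minus the same in control 2, with its standard error (SE) from limma. A log2 change of 1 is a factor of 2 for bright probe sets and understates the change of dim ones. Where treated signals are set against untreated ones, untreated means control 2 unless control 1 is named. The median signal lay between 110.9 and 147.3 on the control 2 and ATO arrays and between 65.52 and 108.7 on the control 1 and DAR arrays, which form a set apart: control 2 was above control 1 for 9359 of 15448 genes, although both were untreated. Of the 8 plasma cell markers, TNFRSF17, SDC1, IRF4, XBP1, PRDM1 and POU2AF1 were above the array median on 8 of 8 arrays, MZB1 on 7 and CD38 on 4, and the signal of CD38 ranged from 12.5 to 819.9 in the controls. Of the myeloid markers CD14 and FCN1 were above the array median on 0 of 8 arrays, LYZ on 1 and CSF1R on 3, and the summed signal of the 4 myeloid markers ran from 120.4 to 348.8 in controls and from 158.3 to 298.6 after ATO. Of T and NK cell markers CD3D and NKG7 were above it on 0 of 8 arrays, CD3E on 7 and CD2 on 8, and the summed signal of the 4 T and NK cell markers ran from 498 to 606.7 in controls and from 267.5 to 720.5 after ATO. The B cell markers MS4A1 and PAX5 were above it on 2 and 4 arrays, with a summed signal of 98.08 to 950.2 in controls and 82.21 to 869.9 after ATO, and the erythroid marker ALAS2 was above it on 2, with a signal of 64.84 to 155.7 in controls and 66.21 to 128.7 after ATO. The stromal markers COL1A1, COL1A2 and PECAM1 were above it on 8 of 8 arrays and VWF on 1, with a summed signal of 1165 to 1361 in controls and 994.2 to 1587 after ATO, and the part of such signal in the results was not tested.

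Trivalent arsenic binds closely spaced cysteines in proteins and draws on the cell's glutathione. Metallothioneins are small cysteine-rich proteins that hold zinc and other metals and are switched on by the metal-sensing factor MTF1, while the factor NRF2, released from KEAP1 when cysteines of KEAP1 are modified, drives the enzymes of glutathione, thioredoxin, NADPH and heme breakdown. Myeloma cells are malignant plasma cells: they keep the plasma cell factors IRF4, PRDM1 and XBP1 and a large endoplasmic reticulum (ER) for antibody secretion. They rely on ER chaperones, and sterol and fatty acid synthesis for the membranes of that compartment is run by the SREBP factors.

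Promoters of 5 genes that changed are printed to show the sequence letters known to be read by these factors, as the 250 bases before the RefSeq transcription start on GRCh38.p14, 5′ to 3′ on the strand of the gene. Capitals mark matches, on either strand, to the metal response core TGCACNC or TGCGCNC in MT2A (chr16:56608334-56608583, plus strand) and MT1X (chr16:56682220-56682469, plus strand), to the antioxidant response core TGACNNNGC in GCLM (chr1:93909431-93909680, minus strand), to the sterol response letters TCACNCCAC in SREBF2 (chr22:41832855-41833104, plus strand) and to the ER stress response letters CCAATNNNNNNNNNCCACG in HSP90B1 (chr12:103930160-103930409, plus strand).
MT2A: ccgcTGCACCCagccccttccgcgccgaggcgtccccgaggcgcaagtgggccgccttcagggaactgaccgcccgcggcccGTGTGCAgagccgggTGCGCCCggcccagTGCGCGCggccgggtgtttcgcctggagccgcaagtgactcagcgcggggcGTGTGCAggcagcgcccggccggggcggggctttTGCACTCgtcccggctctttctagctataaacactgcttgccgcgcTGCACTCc
MT1X: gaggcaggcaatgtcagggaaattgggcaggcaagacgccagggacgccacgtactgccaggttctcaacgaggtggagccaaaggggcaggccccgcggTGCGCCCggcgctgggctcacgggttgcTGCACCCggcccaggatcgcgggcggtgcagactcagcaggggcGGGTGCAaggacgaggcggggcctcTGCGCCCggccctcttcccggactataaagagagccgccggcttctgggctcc
GCLM: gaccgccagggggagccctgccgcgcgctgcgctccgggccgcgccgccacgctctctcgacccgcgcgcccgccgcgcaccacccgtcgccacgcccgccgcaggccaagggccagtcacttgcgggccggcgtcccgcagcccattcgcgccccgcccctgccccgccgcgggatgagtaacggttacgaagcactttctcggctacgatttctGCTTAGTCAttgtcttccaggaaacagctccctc
SREBF2: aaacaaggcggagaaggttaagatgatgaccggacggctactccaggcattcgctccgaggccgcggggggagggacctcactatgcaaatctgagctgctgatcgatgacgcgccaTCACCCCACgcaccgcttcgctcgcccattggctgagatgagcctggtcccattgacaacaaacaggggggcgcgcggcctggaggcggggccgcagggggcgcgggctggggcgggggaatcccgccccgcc
HSP90B1: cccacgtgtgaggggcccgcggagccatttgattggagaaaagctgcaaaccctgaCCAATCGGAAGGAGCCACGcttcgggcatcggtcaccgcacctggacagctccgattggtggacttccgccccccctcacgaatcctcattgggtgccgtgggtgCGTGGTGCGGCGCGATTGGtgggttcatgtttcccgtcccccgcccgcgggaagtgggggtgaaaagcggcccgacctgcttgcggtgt
The metal response core matched 7 times in the MT2A window and 4 times in that of MT1X. It is short and was found in 24.7% of all 27305 promoters of the table. Among genes tested the share was 31.6%, with 32.9% for genes called higher and 32.7% for genes called lower. The antioxidant core was found in 11% of all promoters, in 6 of the 25 tested NRF2 targets with a promoter in the table and in 4 of the 17 called ones. The sterol letters were found in 0.875% of all promoters and in 1 of 13 called sterol genes, SREBF2. The ER stress letters were the rarest, in 22 promoters or 0.0806%, among them 6 of 26 tested ER folding genes and 3 of the 12 called ones. These are matches of letters in a short window. They describe the sequence and do not show that a factor was bound.

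At 24 h of ATO, 630 of 15448 genes tested changed in limma after Benjamini-Hochberg adjustment over all genes (adjusted p under 0.05, 4.08%), 361 higher (2.34%) and 269 lower (1.74%). Metallothioneins, LINC00304 (a long noncoding RNA read from 1 of 3 probe sets) and HMOX1 were among the 10 largest rises, and FOS, PFKFB4, INSIG1, MZB1 and HK2 led the falls. Among the 630, 625 moved the same way in each of the 4 lines. The median change over all genes was 0.02. The count was 192 without U266 (1.24%), 128 without MM.1s (0.829%), 121 without KMS11 (0.783%) and 762 without 8226/S (4.93%), and 72 of the 630 genes were called in each of these 4 fits.

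**Figure D1:**
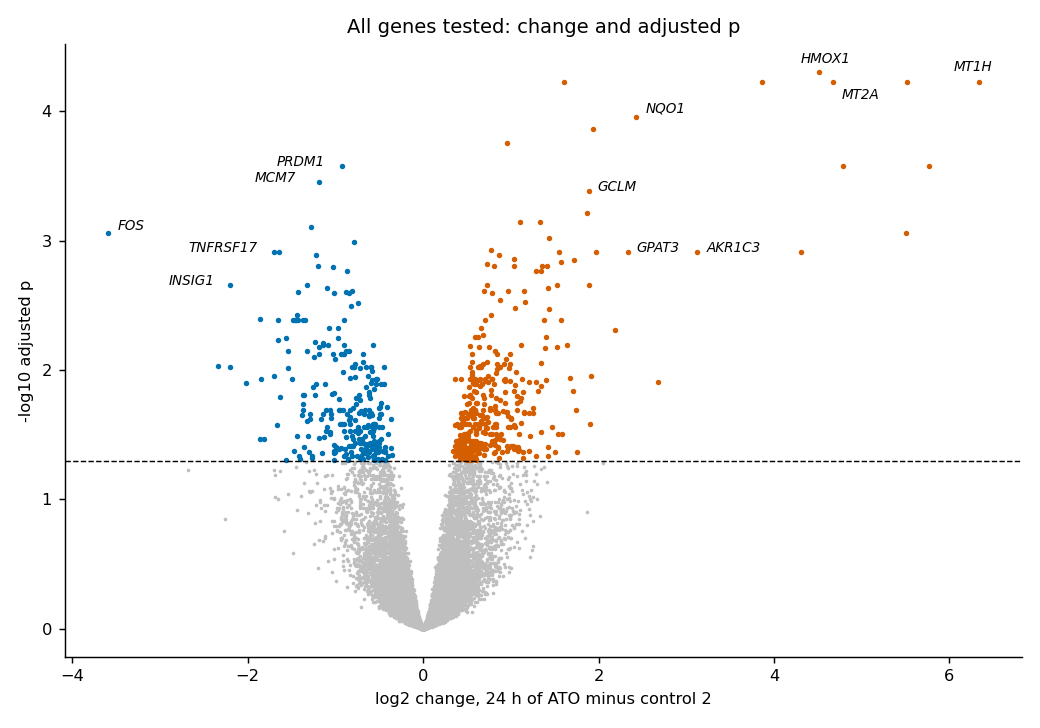
Every gene tested, with the log2 change at 24 h of ATO against control 2 on the x axis and −log10 of limma's adjusted p on the y axis; the dashed line is an adjusted p of 0.05. Orange points are the 361 genes called higher and blue points the 269 called lower, with MT1H at 6.34 farthest right and FOS at -3.59 farthest left.

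**Figure D2:**
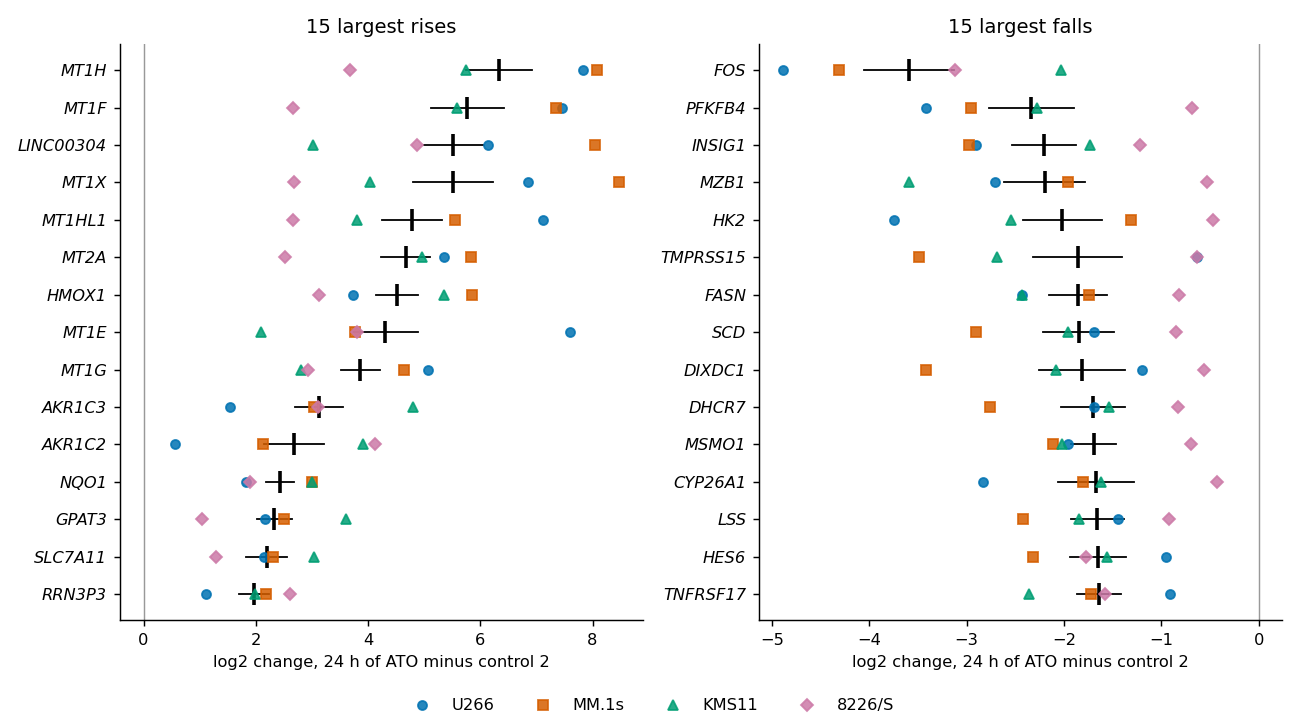
The 15 genes with the largest rises (left) and the 15 with the largest falls (right) among genes called with the same sign in every line. Coloured points are the log2 change of each line, the black tick is the mean and the black bar 1 SE to each side; 8226/S lies nearest to 0 for 11 of the 15 falls.

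Metallothioneins rose farthest. MT1H went from 46.7 to 17279.6 in U266, from 37.3 to 17924 in MM.1s, from 43.9 to 3878 in KMS11 and from 1140.4 to 15005 in 8226/S. MT1H changed by 6.34 ± 0.59 (adjusted p = 5.99e-05). The treated and untreated signals of MT1H did not overlap, and the untreated 8226/S array stood well above the other 3 untreated lines. MT2A, the most widely expressed metallothionein, went from 571 to 24631 in U266, from 545 to 32800.1 in MM.1s, from 416 to 13918 in KMS11 and from 3397 to 19529 in 8226/S. MT2A changed by 4.67 ± 0.44 (adjusted p = 5.99e-05). MT1X went from 129 to 18255 in U266, from 43.7 to 25930.3 in MM.1s, from 532 to 9124 in KMS11 and from 2064 to 13375 in 8226/S. MT1X changed by 5.51 ± 0.71 (adjusted p = 0.000876). For both genes 8226/S was the highest untreated line and KMS11 the lowest treated one, and no treated signal was as low as any untreated one. MT1F (5.77), MT1E (4.31) and MT1G (3.86) also rose, with no overlap of treated and untreated signals. Of the 10 tested genes of this list, 7 were called higher against 2.34% of all genes, with a median change of 4.09. MT3, the brain form, had a change of -0.08 (adjusted p = 0.865), and MTF1, the metal sensor itself, of 0.01 (adjusted p = 0.979). Among zinc transporters SLC30A1, which exports zinc from the cell, rose by 1.34 ± 0.27 (adjusted p = 0.0133), a call that was lost without U266 or KMS11 (adjusted p = 0.0646 and 0.093). SLC39A10, a zinc importer, had -0.51 (adjusted p = 0.183). Metallothionein sequences are near copies of each other, so probe sets may share signal between members and the values of single members are uncertain.

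NRF2 targets were called higher in 20 of 30, against 2.34% of all genes higher, with a median change of 0.88. HMOX1, which breaks heme down to biliverdin, iron and carbon monoxide, went from 1992 to 26819 in U266, from 513 to 31285 in MM.1s, from 587 to 25091 in KMS11 and from 3517 to 30875 in 8226/S. HMOX1 changed by 4.51 ± 0.37 (adjusted p = 4.97e-05). Untreated HMOX1 differed several-fold between lines, and treated HMOX1 was near one level in all of them. BLVRB, a biliverdin reductase, rose by 1.89 ± 0.28 (adjusted p = 0.00219). NQO1, a quinone reductase, went from 1421 to 5119 in U266, from 629.8 to 5251 in MM.1s, from 1477 to 12062 in KMS11 and from 2710.1 to 10138 in 8226/S. NQO1 changed by 2.43 ± 0.25 (adjusted p = 0.00011). ME1, an enzyme that makes NADPH from malate, went from 1156 to 4137 in U266, from 2450.3 to 8157 in MM.1s, from 742 to 3629 in KMS11 and from 2834 to 4072 in 8226/S. ME1 changed by 1.58 ± 0.22 (adjusted p = 0.00146). Treated and untreated signals did not overlap for HMOX1, NQO1 or ME1. The aldo-keto reductase AKR1C3 went from 72.9 to 268 in U266, from 410.1 to 3592 in MM.1s, from 13.6 to 1164 in KMS11 and from 960.4 to 8523 in 8226/S. AKR1C3 changed by 3.13 ± 0.43 (adjusted p = 0.00123), and treated U266 was below untreated MM.1s, so the groups overlapped. AKR1C2 rose by 2.68 ± 0.54 (adjusted p = 0.0123), a call lost in 3 of the 4 fits that left out a line (adjusted p = 0.0621 to 0.103 without MM.1s, KMS11 or 8226/S), and AKR1C2 and its near copy AKR1C1 (1.90; adjusted p = 0.0953 to 0.101 without MM.1s, KMS11 or 8226/S) may share probe signal.

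Within the glutathione and thioredoxin branch 7 of 8 genes were called higher. GCLM, the modifier subunit of glutamate-cysteine ligase, went from 3242 to 8066 in U266, from 655 to 5311 in MM.1s, from 1587 to 5711 in KMS11 and from 2227 to 6139 in 8226/S. GCLM changed by 1.89 ± 0.22 (adjusted p = 0.000412), and its catalytic partner GCLC had 0.63 ± 0.11 (adjusted p = 0.00559), lost without U266 or MM.1s (adjusted p = 0.0609 and 0.0631). Of the 3 tested probe sets of GCLC 2 were called higher and 1 was below 0, at -0.16. SLC7A11, the cystine importer that feeds glutathione synthesis, went from 1414 to 6355 in U266, from 365 to 1911 in MM.1s, from 145 to 1391 in KMS11 and from 295 to 762 in 8226/S. SLC7A11 changed by 2.19 ± 0.37 (adjusted p = 0.00488). Every line rose, and the groups overlapped because untreated U266 was above treated KMS11 and 8226/S. The others called, SRXN1 (1.53), TXNRD1 (0.94), GSR (0.79) and TXN (0.52), restore or form reduced peroxiredoxins, thioredoxin and glutathione, and none held without U266 (adjusted p = 0.0689, 0.0907, 0.107 and 0.11) or KMS11 (0.0781, 0.127, 0.0906 and 0.0643), nor SRXN1, TXNRD1 and TXN without MM.1s (0.0851, 0.107 and 0.114). SRXN1 changed little in 8226/S, 2317 to 2668, while it went from 1415 to 6309 in MM.1s. Of the regulators, MAFG, the small partner of NRF2 on DNA, rose by 1.03 ± 0.14 (adjusted p = 0.00138), BACH1, the repressor of HMOX1, by 0.83 ± 0.20 (adjusted p = 0.0277), and KEAP1 by 0.57 ± 0.15 (adjusted p = 0.0405). NFE2L2, the gene of NRF2, had 0.38 (adjusted p = 0.0653), and FTL, the ferritin light chain, 0.18 (adjusted p = 0.309). Without U266 13, without MM.1s 11, without KMS11 10 and without 8226/S 18 of the 30 targets were called, and BACH1 and KEAP1 were each lost without 3 of the lines (adjusted p for BACH1 = 0.0646 to 0.177 without U266, MM.1s or KMS11; for KEAP1 = 0.0547 to 0.24 without MM.1s, KMS11 or 8226/S).

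Of 9 tested genes of arsenic uptake, methylation, conjugation and export, 0 were called by limma, and 4 had an unadjusted p under 0.05. Among them were AQP3, an aquaglyceroporin that admits arsenite, at -0.88 (adjusted p = 0.134), AS3MT, the arsenic methyltransferase, at -0.09 (adjusted p = 0.872), and ABCC1, an exporter of glutathione conjugates, at 0.15 (adjusted p = 0.546). In the iron list 1 of 7 genes was called higher, beside 2.34% of all genes higher. It was NCOA4, which delivers ferritin to the lysosome (0.43 ± 0.10, adjusted p = 0.0277), and it was lost without U266, KMS11 or 8226/S (adjusted p = 0.0996 to 0.152). TFRC, the transferrin receptor, had 0.16 (adjusted p = 0.601).

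Plasma cell genes fell in part. Of 24 tested, 9 were called lower, against 1.74% of all genes lower, with a median change of -0.62. All 5 transcription factors had lower means, and 3 were called. IRF4, on which myeloma cells depend, went from 9164 to 3815 in U266, from 13176 to 5061 in MM.1s, from 12138 to 5959 in KMS11 and from 6467 to 3936 in 8226/S. IRF4 changed by -1.09 ± 0.17 (adjusted p = 0.00232), with every treated signal below every untreated one. PRDM1, which shuts off the B cell programme, went from 6334 to 3204 in U266, from 9829 to 4684 in MM.1s, from 5849 to 3066 in KMS11 and from 2509 to 1474 in 8226/S. PRDM1 changed by -0.93 ± 0.10 (adjusted p = 0.000267). Of its 3 tested probe sets 2 were called lower and the other was at 0.10. PRDM1 fell in each line, and the groups overlapped because untreated 8226/S was already low. POU2AF1, a B cell coactivator of antibody genes, went from 11904 to 4579 in U266, from 13175 to 7998 in MM.1s, from 12613 to 6714 in KMS11 and from 7634 to 3538 in 8226/S. POU2AF1 changed by -1.03 ± 0.19 (adjusted p = 0.00746). Its call was lost without U266 (adjusted p = 0.0697) and when its probe sets, which differ in sign, were averaged (adjusted p = 0.299). XBP1, the factor of the secretory programme, had -0.62 (adjusted p = 0.0599), lower in 4 of 4 lines.

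Among 14 surface receptors 3 were called lower, beside 1.74% of all genes lower. TNFRSF17, the receptor BCMA, went from 12934 to 6871 in U266, from 16473 to 4957 in MM.1s, from 7288 to 1395 in KMS11 and from 1454 to 469 in 8226/S. TNFRSF17 changed by -1.64 ± 0.22 (adjusted p = 0.00123), falling in every line and least in U266. ITGA4, an integrin chain that binds marrow stroma, fell by 1.17 ± 0.27 (adjusted p = 0.024) on the log2 scale, and LAX1, a membrane adaptor of lymphocytes, fell by 0.68 ± 0.18 (adjusted p = 0.0489). Both calls were lost without U266, MM.1s or KMS11 (adjusted p for ITGA4 = 0.0768 to 0.152 without U266, MM.1s or KMS11; for LAX1 = 0.14 to 0.301 without U266, MM.1s or KMS11). GPRC5D, an orphan receptor of plasma cells, had -1.35 (adjusted p = 0.0743) and SDC1, the syndecan CD138, -0.86 (adjusted p = 0.124), both lower in 4 of 4 lines and neither called. MZB1, a cochaperone of antibody assembly, went from 346 to 28.3 in U266, from 14288 to 3662 in MM.1s, from 6331 to 496 in KMS11 and from 13219.6 to 9144 in 8226/S. MZB1 changed by -2.20 ± 0.42 (adjusted p = 0.00948). On the log2 scale MZB1 fell most in KMS11 and least in 8226/S. FKBP11, a prolyl isomerase of secretory cells, had -1.57 ± 0.27 (adjusted p = 0.00568). DERL3, a factor of ER degradation, fell by 1.00 ± 0.25 (adjusted p = 0.0391) on the log2 scale. The calls of MZB1 (adjusted p = 0.079 to 0.0878 without U266, MM.1s or KMS11), FKBP11 (adjusted p = 0.0801 without MM.1s and 0.0724 without KMS11) and DERL3 (adjusted p = 0.0899 to 0.246 without U266, MM.1s or KMS11) were lost when single lines were left out. JCHAIN, the joining chain of secreted antibody, had -0.10 (adjusted p = 0.913). In the list as a whole 5 were called without U266, 4 without MM.1s, 4 without KMS11 and 11 without 8226/S. With all 8 untreated arrays as the control, 7 of the 24 plasma cell genes were called lower, with a median of -0.62. These were 4 transcription factors, 1 surface receptor and 2 genes of antibody assembly and other roles, beside 522 of 15448 genes lower in that fit.

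ER folding genes were called lower in 12 of 28 (1.74% of all genes), with a median change of -0.53. The called genes were 8 of 12 chaperones and 4 of 7 disulfide enzymes, while limma called 0 of 6 degradation genes and 0 of 3 stress sensors, with 1 gene of each at an unadjusted p under 0.05. EIF2AK3, the sensor PERK, had -0.73 (adjusted p = 0.105) and HERPUD1, a degradation factor, -0.08 (adjusted p = 0.863). These counts rest on the brightest probe set of each gene. A second probe set of HERPUD1 was at -0.64 and not called. The 3 probe sets of ERN1, the sensor IRE1, ran from -1.04 to -0.01, and 1 was called lower. DERL3, a degradation factor called lower, was counted with the plasma cell genes. PDIA4, a protein disulfide isomerase, went from 3977 to 1664 in U266, from 5866 to 1855 in MM.1s, from 8891 to 2759 in KMS11 and from 6002 to 4045 in 8226/S. PDIA4 changed by -1.28 ± 0.16 (adjusted p = 0.000782). HYOU1, a large ER chaperone of the HSP70 class, went from 4475 to 2399 in U266, from 10543 to 4286 in MM.1s, from 9767 to 4529 in KMS11 and from 10149 to 8135 in 8226/S. HYOU1 changed by -0.90 ± 0.15 (adjusted p = 0.00409). In both genes 8226/S changed least, and its treated signal lay within the untreated range. SDF2L1, a cofactor of BiP, went from 1381 to 452 in U266, from 1482 to 487 in MM.1s, from 2365 to 676 in KMS11 and from 1055 to 673 in 8226/S. SDF2L1 changed by -1.37 ± 0.23 (adjusted p = 0.00409), with no overlap of treated and untreated signals. HSP90B1, the ER form of HSP90 whose promoter is printed, had -1.08 ± 0.18 (adjusted p = 0.00475), MANF, a secreted ER protein, -1.14 ± 0.20 (adjusted p = 0.00618), PRDX4, the ER peroxiredoxin, -0.88 ± 0.16 (adjusted p = 0.00719), and HSPA5, or BiP, -0.78 ± 0.15 (adjusted p = 0.0113). SDF2L1 was lost without KMS11 (adjusted p = 0.0728), HSP90B1 without MM.1s (0.0836), MANF and HSPA5 without MM.1s or KMS11 (MANF 0.0879 without MM.1s and 0.0876 without KMS11; HSPA5 0.101 without MM.1s and 0.0878 without KMS11) and PRDX4 in 3 of 4 such fits (0.0663 to 0.0885 without U266, MM.1s or KMS11). Of the 28 genes, 8 were called without U266, 3 without MM.1s, 3 without KMS11 and 13 without 8226/S.

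The untreated control 1 arrays, which belong to the DAR part of the study, carried less PDIA4 and HYOU1 than control 2. Control 1 had HYOU1 signals of 2172 in U266, 3114 in MM.1s, 3251 in KMS11 and 4067 in 8226/S, each below the treated signal of the same line. With all 8 untreated arrays as the control, HYOU1 (adjusted p = 0.662) and PDIA4 (adjusted p = 0.0527) were not called. Whether control 1 or control 2 is nearer to the untreated state of these cells was not tested. Over the ER folding list limma with the 8 controls together called 8 of 28 lower (5 chaperones and 3 disulfide enzymes) with a median of -0.35. That fit called more genes in all, 522 of 15448 lower against 269 with control 2 alone. Of 29 genes of ER entry and glycosylation 3 were called lower against control 2 (9 with the 8 controls together, with a median of -0.32 in place of -0.21), RPN1 of the oligosaccharyltransferase (-0.58 ± 0.12, adjusted p = 0.0119), SPCS3 of the signal peptidase (-0.61 ± 0.13, adjusted p = 0.0156) and SSR1 of the translocon (-0.59 ± 0.13, adjusted p = 0.0215). Beside 1.74% of all genes lower, 2 of 25 genes of ER to Golgi transport were called lower too, the cargo receptors LMAN2 (-0.55, adjusted p = 0.0263) and TMED9 (-0.40, adjusted p = 0.0314). None of these 5 calls held without MM.1s or without KMS11. RPN1, LMAN2 and TMED9 were lost without U266 too (0.057, 0.119 and 0.125), and TMED9 without 8226/S (0.0539). Without MM.1s or KMS11 the adjusted p of the 5 genes ran from 0.0955 to 0.189.

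Sterol synthesis showed a broad fall, 15 of 23 tested genes lower (1.74% of all genes), with a median change of -1.25 and a mean below 0 for 22 of 23. INSIG1, which holds the SREBP escort SCAP in the ER, went from 10142 to 1332 in U266, from 17032 to 2138 in MM.1s, from 17054 to 5118 in KMS11 and from 12339.7 to 5300.0 in 8226/S. INSIG1 changed by -2.21 ± 0.33 (adjusted p = 0.0022). MSMO1, a C4 demethylase of sterols, went from 8418 to 2148 in U266, from 9922 to 2264 in MM.1s, from 6626 to 1616 in KMS11 and from 4111 to 2528 in 8226/S. MSMO1 changed by -1.70 ± 0.23 (adjusted p = 0.00122). Neither gene had a treated signal as high as any control 2 signal. LSS, which closes the sterol rings, had -1.66 ± 0.27 (adjusted p = 0.00409), HMGCS1, the first committed enzyme of the pathway, -1.42 ± 0.22 (adjusted p = 0.0025), and SQLE, which oxidises squalene, -1.33 ± 0.20 (adjusted p = 0.0022). In 8226/S the list median was -0.28, against -1.37 in U266, -1.63 in MM.1s and -1.16 in KMS11. DHCR7, the last enzyme of cholesterol synthesis, had -1.70 ± 0.33 (adjusted p = 0.0112), IDI1, an isoprenoid isomerase, -1.44 ± 0.23 (adjusted p = 0.00374), and STARD4, a sterol carrier, -1.32 ± 0.24 (adjusted p = 0.00707). DHCR7 and STARD4 were lost without U266 or KMS11 (adjusted p for DHCR7 = 0.0697 without U266 and 0.0858 without KMS11; for STARD4 = 0.0683 without U266 and 0.0792 without KMS11), and IDI1 without U266 (adjusted p = 0.0542). Of the 4 tested probe sets of IDI1 2 were called lower and 2 were above 0, up to 0.67. The SREBP genes themselves were called, SREBF2, whose promoter is printed, at -1.10 ± 0.24 (adjusted p = 0.0205) and SREBF1 at -1.27 ± 0.34 (adjusted p = 0.0475), and neither held when single lines were left out (adjusted p for SREBF2 = 0.105 to 0.136 without U266, MM.1s or KMS11; for SREBF1 = 0.0626 to 0.206 without U266, MM.1s, KMS11 or 8226/S). SCAP had -0.16 (adjusted p = 0.476). Of the 23 genes 5 were called without U266, 8 without MM.1s, 6 without KMS11 and 17 without 8226/S.

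Fatty acid synthesis was called lower in 4 of 9 genes (1.74% of all genes), with a median of -0.58. FASN, the fatty acid synthase, went from 2766 to 489 in U266, from 6516 to 1921 in MM.1s, from 10163 to 1865 in KMS11 and from 10738 to 6064 in 8226/S. FASN changed by -1.86 ± 0.30 (adjusted p = 0.00406). Of its 2 tested probe sets the other went the other way, at 0.42, and was not called. SCD, the stearoyl desaturase, went from 6740.1 to 2071 in U266, from 14080.4 to 1851 in MM.1s, from 10115 to 2584 in KMS11 and from 9559 to 5309.8 in 8226/S. SCD changed by -1.85 ± 0.36 (adjusted p = 0.0117), lost without U266 or KMS11 (adjusted p = 0.0817 and 0.0949). Both genes fell in each line, and the treated 8226/S signal was above that of the other 3 treated lines. ACLY had -0.43 ± 0.11 (adjusted p = 0.0433) and ACSS2 -0.58 ± 0.13 (adjusted p = 0.0221), the enzymes that make acetyl-CoA from citrate and acetate, and neither held without single lines, as without U266 (adjusted p = 0.14 and 0.108), MM.1s (0.113 and 0.115) or KMS11 (0.181 and 0.149), and ACLY was lost without 8226/S (0.0836). Without single lines the list had 1 (U266), 2 (MM.1s), 1 (KMS11) and 3 (8226/S) calls. MYLIP, which degrades the LDL receptor, was the 1 of 6 sterol efflux genes called, beside 1.74% of all genes lower. It had -0.97 ± 0.17 (adjusted p = 0.00568), lost without MM.1s (adjusted p = 0.0694). Of its 6 tested probe sets 3 were called lower and 1 was above 0, at 0.37. ABCA1, the cholesterol exporter, had -0.09 (adjusted p = 0.93).

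The lipid genes also differed between the untreated arrays. FASN had signals in control 1 of 439.8 in U266, 845 in MM.1s, 1579.7 in KMS11 and 1558 in 8226/S, a log2 difference of control 2 minus control 1 of 2.73, and those of INSIG1 were 1828 in U266, 4291 in MM.1s, 4767 in KMS11 and 4162 in 8226/S, a difference of 1.96. Control 1 was below control 2 in each line for both genes. For FASN it was below the treated signal of each line, and for INSIG1 it was above the treated signal in U266 and MM.1s and below it in KMS11 and 8226/S. Over the lists, control 2 was above control 1 by a median of 0.90 for fatty acid synthesis and 0.29 for sterol synthesis, against 0.21 for all genes. With the 8 untreated arrays as one control the sterol list had 14 lower calls with a median of -0.82. Fatty acid synthesis had 1 lower call with a median of -0.14, beside 522 of 15448 genes lower in all. In that fit MSMO1 (adjusted p = 1.12e-05), HMGCS1 (0.00147), LSS (0.0327) and IDI1 (1.12e-05) were called, and INSIG1 (0.0727), SQLE (0.178), FASN (0.541), SCD (0.0522) and SREBF2 (0.57) were not.

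**Figure D3:**
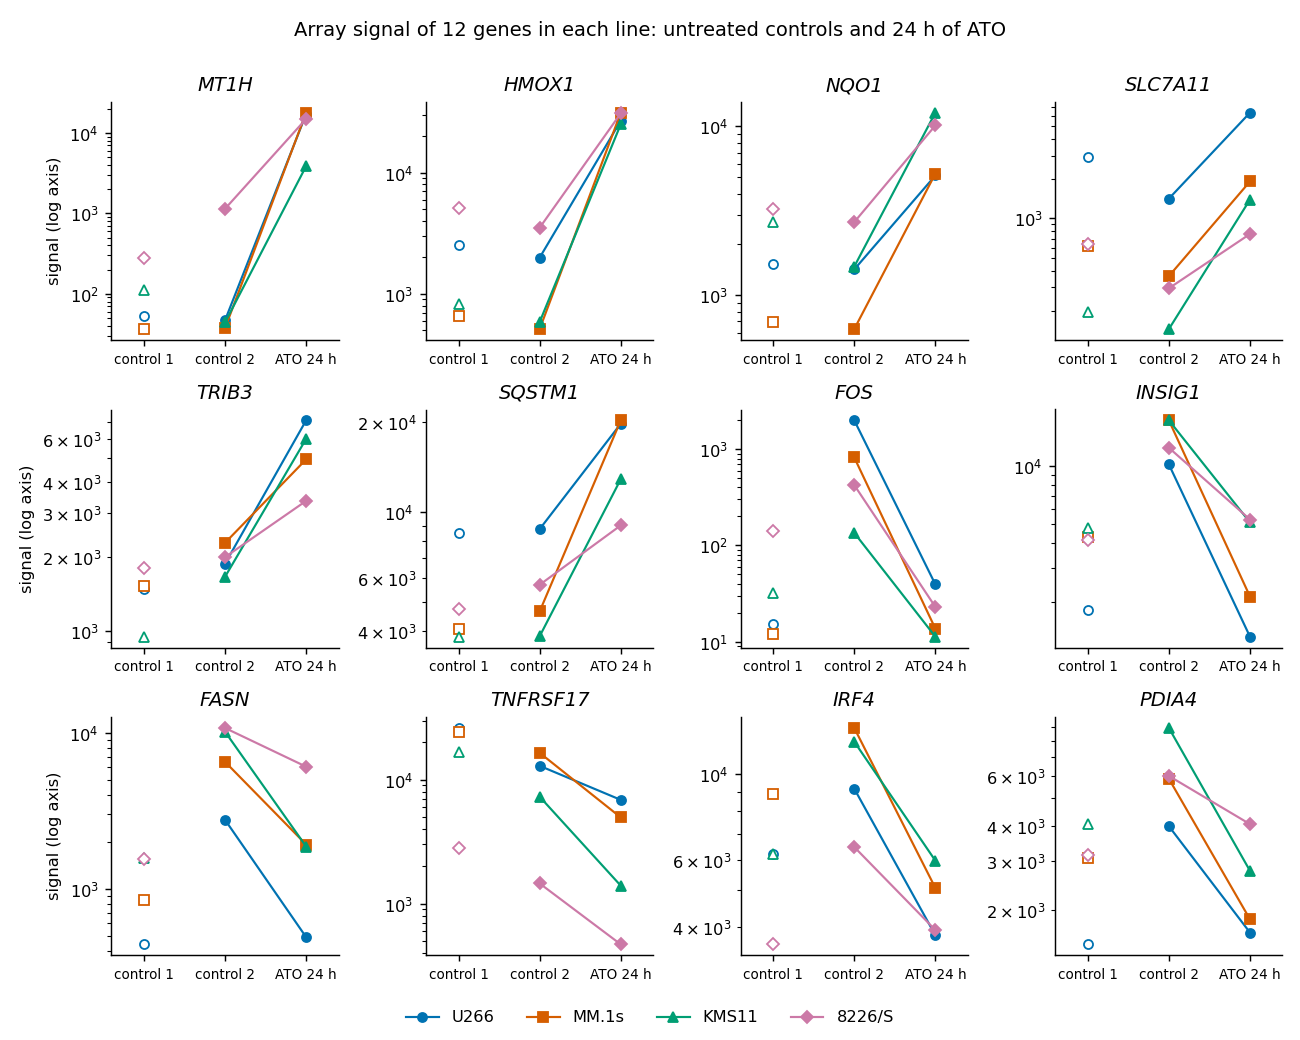
Array signal on a log axis for 12 genes. Open symbols are the untreated control 1 arrays and filled symbols joined by a line are control 2 and 24 h of ATO of the same line. Treated and control 2 signals do not overlap for MT1H, HMOX1, NQO1, TRIB3, SQSTM1, FOS, INSIG1 or IRF4, and for FOS, INSIG1 and FASN the control 1 arrays lie below control 2 in each line.

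Genes of the integrated stress response, the programme run by the factor ATF4, rose in part: 7 of 30 were called higher (2.34% of all genes), with a median of 0.44. TRIB3, a pseudokinase induced by ATF4, went from 1873 to 7139 in U266, from 2276 to 4961 in MM.1s, from 1658 to 6005 in KMS11 and from 1992 to 3367 in 8226/S. TRIB3 changed by 1.40 ± 0.24 (adjusted p = 0.00559), and the treated and untreated signals did not overlap. SLC7A11 is shared with the NRF2 list. SLC3A2, its partner chain in the membrane, had 0.72 ± 0.13 (adjusted p = 0.00866), CTH, which makes cysteine from cystathionine, 1.15 ± 0.26 (adjusted p = 0.0215), SESN2, a stress-induced brake on mTORC1, 1.35 ± 0.32 (adjusted p = 0.0302), and CEBPB, a partner of ATF4, 0.89 ± 0.21 (adjusted p = 0.031). Leaving out a line ended the calls of SLC3A2 (adjusted p = 0.0683 without U266 and 0.0566 without KMS11), CTH (0.115 to 0.133 without U266, MM.1s or KMS11), SESN2 (0.0528 to 0.167 without U266, KMS11 or 8226/S) and CEBPB (0.0824 to 0.152 without U266, MM.1s or KMS11). The best-known members had mixed values, with DDIT3, the factor CHOP, at 0.79 (adjusted p = 0.0679), ATF3 at 0.37 (adjusted p = 0.718) and ASNS, asparagine synthetase, at -0.16 (adjusted p = 0.833). The count was 2 without U266, 4 without MM.1s, 2 without KMS11 and 5 without 8226/S. Of 15 cytosolic transfer RNA synthetases 12 had a positive mean, and 1 was called, beside 4.08% of all genes in either direction. That gene, VARS1, fell by 0.62 ± 0.12 (adjusted p = 0.0112) on the log2 scale, lost without U266, MM.1s or KMS11 (adjusted p = 0.0622 to 0.0895).

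Heat shock genes were called higher in 3 of 18 at 24 h (2.34% of all genes), with 17 of 18 means above 0 and a median of 0.46. DNAJB4, an HSP40 cochaperone, went from 183 to 543 in U266, from 228 to 969 in MM.1s, from 326 to 773 in KMS11 and from 250.2 to 483 in 8226/S. DNAJB4 changed by 1.36 ± 0.20 (adjusted p = 0.00158), and did not overlap with its controls. BAG3, which couples HSP70 to autophagy, had 1.00 ± 0.23 (adjusted p = 0.0233) and DNAJA1, another HSP40, 0.61 ± 0.13 (adjusted p = 0.018), and leaving out a line ended both calls (adjusted p for BAG3 = 0.12 without U266 and 0.103 without KMS11; for DNAJA1 = 0.0805 to 0.1 without U266, MM.1s or KMS11). HSPA6, the strictly inducible HSP70, had 1.25 (adjusted p = 0.229) and HSPH1, an HSP110, 0.44 (adjusted p = 0.113).

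Selective autophagy genes rose in 6 of 12 (2.34% of all genes). SQSTM1, the ubiquitin receptor p62, went from 8764 to 19707 in U266, from 4655 to 20226 in MM.1s, from 3846 to 12863 in KMS11 and from 5713 to 9021 in 8226/S. SQSTM1 changed by 1.42 ± 0.20 (adjusted p = 0.00156), and treated and untreated signals did not overlap. MAP1LC3B (0.95 ± 0.17, adjusted p = 0.00829) and GABARAPL1 (1.35 ± 0.25, adjusted p = 0.00875), which coat the autophagosome, rose, as did the receptors OPTN (0.82, adjusted p = 0.0345) and NBR1 (0.47, adjusted p = 0.0371) and the starting kinase ULK1 (1.01, adjusted p = 0.0387). Apart from SQSTM1 each of these calls was lost without at least 1 line, MAP1LC3B without U266 or MM.1s (adjusted p = 0.0689 and 0.092), GABARAPL1 without MM.1s or KMS11 (0.0906 and 0.0643), ULK1 without U266, MM.1s or KMS11 (0.0906 to 0.225), and OPTN (0.062 to 0.176 without U266, MM.1s, KMS11 or 8226/S) and NBR1 (0.0514 to 0.212 without U266, MM.1s, KMS11 or 8226/S) without any one line. The list had 2, 1, 2 and 4 calls without U266, MM.1s, KMS11 and 8226/S. In the lysosome list 3 of 14 were called higher (2.34% of all genes), the protease CTSD (0.99, adjusted p = 0.0277), the membrane protein LAMP2 (0.61, adjusted p = 0.0394) and the proton pump subunit ATP6V0D1 (0.45, adjusted p = 0.0248), and each was lost without U266 (adjusted p = 0.0661, 0.167 and 0.133) and without KMS11 (0.16, 0.266 and 0.192). CTSD and LAMP2 were lost without MM.1s too (0.0801 and 0.109). Of the 4 tested probe sets of LAMP2 1 was called higher and 1 was below 0, at -0.11. Constitutive proteasome subunits had a mean above 0 in 27 of 27, with a median of 0.25 and 3 called higher (2.34% of all genes): PSMC2 (0.43, adjusted p = 0.0117), PSMB4 (0.40, adjusted p = 0.0392) and PSMB2 (0.42, adjusted p = 0.0459). Control 2 was above control 1 for 1 of 27 subunits, and with the 8 controls together the median was -0.13 and PSMC2 and PSMB4 had values of -0.04 and -0.02. None of the 3 was called without U266, MM.1s or KMS11, PSMC2 with adjusted p = 0.0518 to 0.112 without U266, MM.1s or KMS11, PSMB4 with 0.109 to 0.234 without U266, MM.1s or KMS11 and PSMB2 with 0.0575 to 0.173 without U266, MM.1s, KMS11 or 8226/S, or with each array centred on its median (adjusted p = 0.0559, 0.106 and 0.153).

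FOS, the AP-1 subunit made within minutes of a stimulus, had the largest fall of the genes tested. Its signal went from 1996 to 39.2 in U266, from 820.1 to 13.6 in MM.1s, from 135 to 11.2 in KMS11 and from 424 to 22.9 in 8226/S. FOS changed by -3.59 ± 0.46 (adjusted p = 0.000876), and treated FOS was at most 39.2. Control 1 had FOS signals of 15.3 in U266, 11.9 in MM.1s, 32.2 in KMS11 and 142 in 8226/S, so 3 of the 4 untreated control 1 arrays were as low as the treated ones, and with the 8 controls together FOS was not called (adjusted p = 0.0811). Of 18 immediate early genes 2 were called lower (1.74% of all genes), with a median of -0.39 (-0.078 with the 8 controls together). The other was KLF2, a factor of quiescence (-1.38 ± 0.31, adjusted p = 0.0221), lost without U266, MM.1s or KMS11 (adjusted p = 0.107 to 0.114). EGR1 had -2.26 (adjusted p = 0.142), lower in 4 of 4 lines, JUN -0.45 (adjusted p = 0.526), and the phosphatase DUSP6 -1.54 (adjusted p = 0.09). This list was called in 1 gene without U266, 1 without MM.1s, 4 without KMS11 and 3 without 8226/S.

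Of 26 genes of glycolysis and the hypoxia response 3 were called lower (1.74% of all genes), with a median of -0.32 (-0.12 with the 8 controls together), and 8 were called without 8226/S. HK2, the inducible hexokinase, went from 1559.8 to 89.7 in U266, from 2436 to 964 in MM.1s, from 3153 to 515 in KMS11 and from 2347 to 1692 in 8226/S. HK2 changed by -2.02 ± 0.40 (adjusted p = 0.0125). Its 3 tested probe sets ran from -2.02 to -0.27, and 1 was called lower. PDK1, a kinase that inhibits pyruvate dehydrogenase, had -1.29 ± 0.29 (adjusted p = 0.022) and ALDOC, an aldolase, -1.42 ± 0.37 (adjusted p = 0.0459). The 3 tested probe sets of PDK1 ran from -1.29 to -0.50, and 1 was called lower. PFKFB4, which sets the level of the activator of phosphofructokinase and stood outside the list, went from 1386 to 103 in U266, from 1230.2 to 133 in MM.1s, from 1052 to 194 in KMS11 and from 256 to 148 in 8226/S. PFKFB4 changed by -2.34 ± 0.44 (adjusted p = 0.00936). Both genes changed least in 8226/S. These calls were lost without U266 or KMS11 and, but for PFKFB4, without MM.1s, with adjusted p of 0.0715 to 0.107 for HK2, 0.0979 to 0.163 for PDK1 and 0.153 to 0.207 for ALDOC. For PFKFB4 it was 0.098 without U266 and 0.0868 without KMS11. Control 1 signals were 171 to 1373 for HK2 and 55.7 to 154 for PFKFB4, and with the 8 controls together neither was called (adjusted p = 0.0636 and 0.26). Over the 15 glycolysis genes 10 means were below 0, with a median of -0.31. Among those not called were TPI1 at -0.45 (adjusted p = 0.0722), LDHA at -0.31 (adjusted p = 0.209) and GAPDH, which had the highest value of the 15, at 0.09 (adjusted p = 0.673). PGK1 had -0.17 (adjusted p = 0.404), and 2 of its 5 other probe sets were called lower with every probe set tested, at -0.54 (adjusted p = 0.0367) and -0.52 (adjusted p = 0.0454). HIF1A had 0.18 (adjusted p = 0.59). In the respiratory chain 1 of 21 was called, near the share of all genes (4.08% in either direction), NDUFV2 of complex I (-0.37, adjusted p = 0.024), lost without U266, MM.1s or KMS11 (adjusted p = 0.0678 to 0.197).

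Proliferation genes were called in few places. MCM7, a subunit of the replication helicase, was the 1 of 29 G1/S and replication genes called. That is 3.45%, near the share of all genes (4.08% in either direction). Of the 29 means 25 were below 0, with a median of -0.31. By line the median was -0.66 in U266, -0.27 in MM.1s, -0.31 in KMS11 and 0.08 in 8226/S. MCM7 went from 3418 to 1510.5 in U266, from 3390.3 to 1199 in MM.1s, from 4921 to 1799 in KMS11 and from 13452 to 8486 in 8226/S. MCM7 changed by -1.19 ± 0.14 (adjusted p = 0.000353). It fell in each line from very different levels, with 8226/S highest before and after. The other MCM genes had values from -0.58 for MCM4 to 0.03 for MCM6 and did not pass. Without 8226/S 6 of the 29 were called. For G2/M and mitosis limma called 0 of 25, 0 with an unadjusted p under 0.05, and for MYC and ribosome biogenesis 0 of 15, 4 with an unadjusted p under 0.05. MYC itself had -0.78 (adjusted p = 0.208). Among 8 translocation targets 1 was called lower, beside 1.74% of all genes lower. It was CCND1, the cyclin D1 gene (-0.94 ± 0.24, adjusted p = 0.0398), highest in U266 with 6890.0 before and 2449.9 after ATO. Its call was lost without U266, MM.1s or KMS11 (adjusted p = 0.163 to 0.253).

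Death and immune genes were called singly within their lists. Over all genes 2.34% were called higher and 1.74% lower, and 1 call in a list this short says little about the list. BMF, a BH3-only protein, rose by 0.92 ± 0.18 (adjusted p = 0.0119), the 1 of 9 death-promoting BCL2 members called, and BCL2L1, the survival factor BCL-xL, fell by 0.83 ± 0.20 (adjusted p = 0.0297) on the log2 scale, the 1 of 4 pro-survival members. BMF was lost without MM.1s or KMS11 (adjusted p = 0.113 and 0.109) and BCL2L1 without U266, MM.1s or KMS11 (0.0805 to 0.176) and with the 8 controls together (0.703). MCL1 had -0.07 (adjusted p = 0.865) and PMAIP1, the BH3-only NOXA, 0.66 (adjusted p = 0.325). FAS, a death receptor and the 1 of 12 p53 targets called, rose by 0.84 ± 0.20 (adjusted p = 0.0325) and was lost without any one line (adjusted p = 0.0536 to 0.146 without U266, MM.1s, KMS11 or 8226/S), and CDKN1A had 0.13 (adjusted p = 0.918). HLA-E, a ligand of NK cell receptors, went from 7071 to 3606 in U266, from 11305 to 3576 in MM.1s, from 4701 to 2559 in KMS11 and from 3629.7 to 2726 in 8226/S. HLA-E changed by -0.97 ± 0.16 (adjusted p = 0.00475), and HLA-F had -0.85 ± 0.15 (adjusted p = 0.00707), lost without KMS11 (adjusted p = 0.0876); B2M, their shared light chain, had 0.08 (adjusted p = 0.741). Of 20 interferon genes IFI35 rose (0.66 ± 0.15, adjusted p = 0.0246; lost without MM.1s or KMS11, adjusted p = 0.177 and 0.185) and ISG20 fell (-0.70 ± 0.17, adjusted p = 0.0339; lost without U266, MM.1s or KMS11, adjusted p = 0.0768 to 0.192). Of 15 NF-kB genes limma called 0 (4 with an unadjusted p under 0.05), 0 of 8 genes of PML bodies and SUMO (0 at that level) and 0 of 10 markers of other cell types (1 at that level). PML, the protein that arsenic is known to drive into SUMO-modified bodies, had -0.29 (adjusted p = 0.462) at the RNA level.

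**Figure D4:**
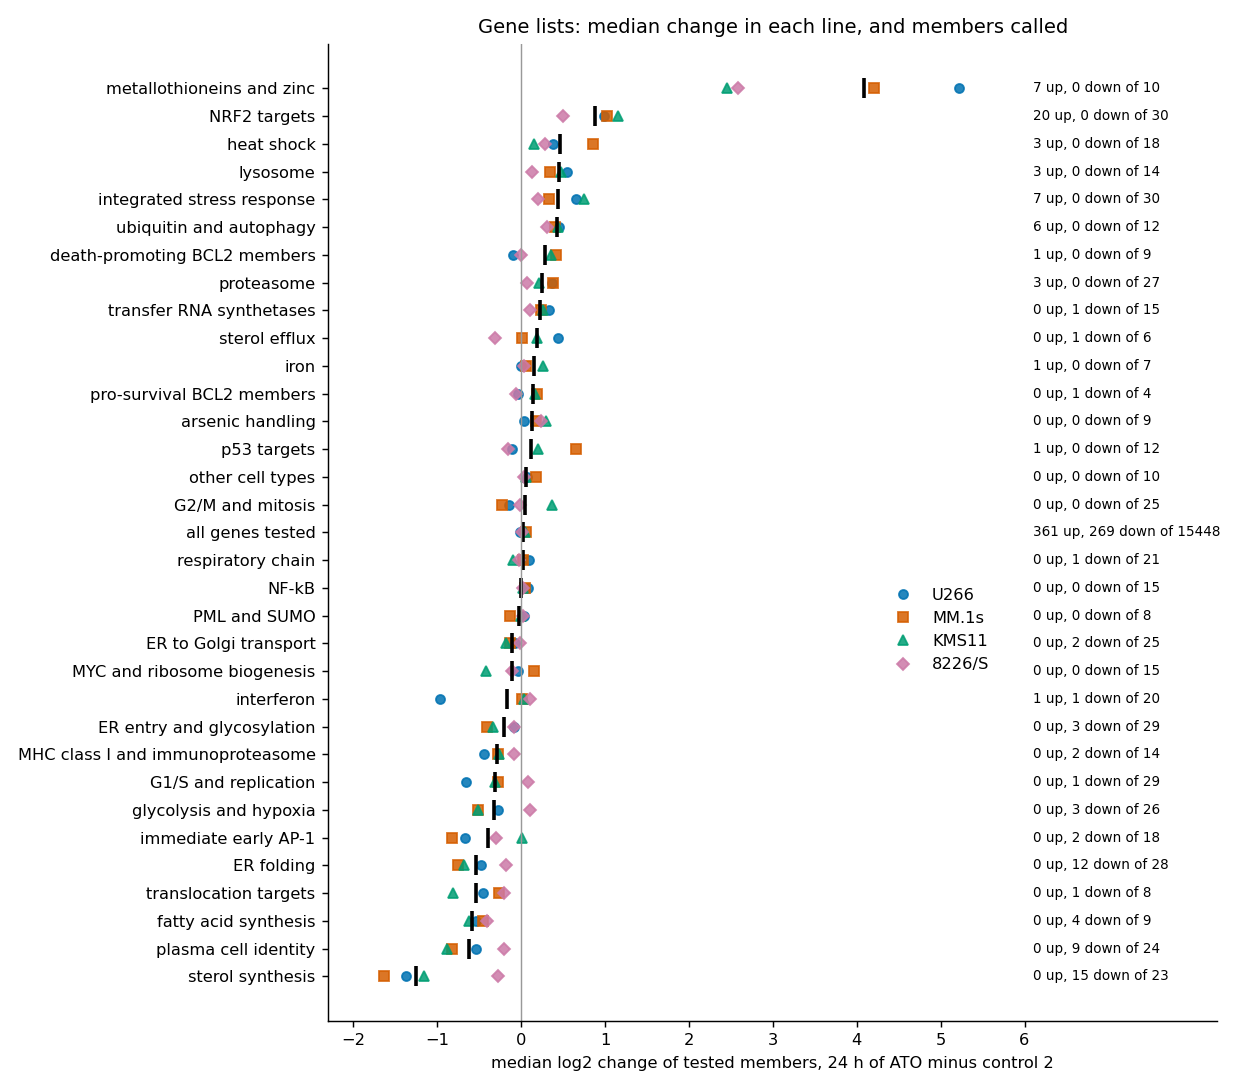
Median log2 change of the tested members of each gene list, 24 h of ATO minus control 2, for each line (coloured points) and for the mean of the lines (black tick), with the number of members called higher (up) and lower (down) on the right. Metallothioneins and NRF2 targets lie to the right of all genes in each line. Sterol synthesis, plasma cell identity and ER folding lie to the left. Of the lines 8226/S is nearest to 0 in these lists, except for metallothioneins and zinc, where KMS11 is (2.45, beside 2.59 in 8226/S).

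Other genes among the 15 largest changes fell outside the lists. GPAT3, an acyltransferase of triglyceride synthesis, went from 67.6 to 404 in U266, from 89.3 to 646 in MM.1s, from 157 to 2245 in KMS11 and from 747 to 1565 in 8226/S. GPAT3 changed by 2.33 ± 0.31 (adjusted p = 0.00122). RRN3P3, a pseudogene of a ribosomal RNA polymerase factor, had 1.97 ± 0.27 (adjusted p = 0.00123), and was not called with the 8 controls together (adjusted p = 0.131). LINC00304, a long noncoding RNA, had 5.52 ± 0.53 (adjusted p = 5.99e-05) from 1 of its 3 probe sets, and the other two gave 0.53 and -0.04, so its value rests on that probe set. MT1HL1, a metallothionein-like gene, had 4.79 ± 0.53 (adjusted p = 0.000267). Among falls, HES6, a bHLH factor, had -1.65 ± 0.29 (adjusted p = 0.00586), lost without KMS11 (adjusted p = 0.0713). CYP26A1, which clears retinoic acid, had -1.67 ± 0.39 (adjusted p = 0.0266), TMPRSS15, a membrane serine protease, -1.86 ± 0.46 (adjusted p = 0.0343), and DIXDC1, a DIX domain protein of WNT signalling, -1.81 ± 0.44 (adjusted p = 0.0339), with probe sets of DIXDC1 that differ in sign. These last 3 were not called without U266 (adjusted p = 0.098, 0.0678 and 0.107), MM.1s (0.161, 0.194 and 0.0893) or KMS11 (0.136, 0.182 and 0.162).

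The size of change differed between lines. Changes of over 1 log2 unit upward and downward were counted for 543 and 714 genes in U266, 997 and 684 in MM.1s, 869 and 665 in KMS11 and 443 and 478 in 8226/S. Of the 630 called genes, 8226/S had the smallest absolute change for 382, U266 for 117, MM.1s for 67 and KMS11 for 64. The median change of genes called higher was 0.722 in U266, 0.812 in MM.1s, 0.81 in KMS11 and 0.464 in 8226/S, and of genes called lower -0.765, -0.952, -0.945 and -0.465. NRF2 targets had medians of 0.98, 1.02, 1.15 and 0.50 in the same order, and ER folding genes -0.48, -0.75, -0.68 and -0.18. With 1 array per line and condition, differences between lines have no replicate check.

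The response at 24 h was set against 6 h of ATO in the same fit. At this comparison 21 of 15448 genes were called (0.136%), 17 lower at 24 h (0.11%) and 4 higher (0.0259%); with quantile normalization 10 of 29 were higher. Of 18 heat shock genes 4 were called, all lower at 24 h. BAG3 had changes against control 2 of 2.46 at 6 h, 1.00 at 24 h and 0.78 at 48 h, a difference of 24 h minus 6 h of -1.47 ± 0.23 (adjusted p = 0.0126). Its call was lost when single lines were left out (adjusted p = 0.0569 to 0.206 without U266, KMS11 or 8226/S). ZFAND2A, an arsenite-inducible zinc finger protein, had 2.12, 0.71 and 0.60 at the 3 times and a difference of -1.41 ± 0.16 (adjusted p = 0.0012). For HSPB1, the small heat shock protein HSP27, the difference was -1.48 ± 0.27 (adjusted p = 0.0458), and for DNAJB1 it was -1.16 ± 0.16 (adjusted p = 0.00454). HSPH1 fell by 1.00 ± 0.15 (adjusted p = 0.0108) between 6 and 24 h. RGS2, a regulator of G protein signalling, was 0.36 at 6 h and -1.45 at 24 h, lower in 4 of 4 lines, with a difference of -1.81 ± 0.24 (adjusted p = 0.00421), and PDIA4 differed by -0.91 ± 0.16 (adjusted p = 0.0389). STAT4 differed by -1.35 ± 0.21 (adjusted p = 0.0114), from 1.34 at 6 h to -0.02 at 24 h against control 2. The 4 genes higher at 24 h than at 6 h were ANXA4, a membrane-binding annexin (1.31 ± 0.21, adjusted p = 0.0187), TBCK (1.04 ± 0.15, adjusted p = 0.00638), PPP1R35 (0.83 ± 0.13, adjusted p = 0.0148) and DYNLRB1, a dynein light chain (0.53 ± 0.09, adjusted p = 0.0309). Against control 2 these 4 stood at -0.49, -0.75, -1.17 and -0.31 at 6 h. At 24 h they stood at 0.82, 0.29, -0.34 and 0.22, and limma called only ANXA4 (adjusted p = 0.0426). Apart from ZFAND2A, lost without KMS11 only (adjusted p = 0.0782), each gene named here was lost without U266 and without KMS11: HSPB1 (0.16 to 0.321), DNAJB1 (0.0808 to 0.132), HSPH1 (0.134 to 0.246), RGS2 (0.0808 to 0.0863) and TBCK (0.0972 to 0.189). PDIA4 (0.16 to 0.321), STAT4 (0.126 to 0.173), ANXA4 (0.0808 to 0.279) and PPP1R35 (0.0972 to 0.206) were lost without MM.1s too, and DYNLRB1 (0.0818 to 0.206) when any one line was left out. Without single lines the count was 2 (U266), 14 (MM.1s), 3 (KMS11) and 46 (8226/S). At 6 h MT1H had a change of 7.16, HMOX1 of 4.55 and FOS of -2.96, against the same controls as at 24 h.

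Between 24 and 48 h of ATO 1 gene was called (0.00647%), TSPAN31, a tetraspanin, at 0.73 ± 0.10 (adjusted p = 0.0269), from -0.03 at 24 h to 0.70 at 48 h against control 2, and 1111 genes had an unadjusted p under 0.05. TSPAN31 was not called when any one line was left out (adjusted p = 0.16 to 0.931); without U266 the 1 call was another gene. Without MM.1s, KMS11 or 8226/S limma called 0 genes, with 767 to 1196 at an unadjusted p under 0.05, and with each array centred on its median it called 0, with 1011. At 48 h TNFRSF17 had -1.70 and NQO1 2.55, beside -1.64 and 2.43 at 24 h. A test that passes for so few genes does not show that 24 and 48 h were alike.

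The 24 h response to ATO was also set against 24 h of DAR, each against its own numbered control in limma on 28 arrays. Doses were equal, 2 µM, only in 8226/S. The difference was called for 36 genes (0.233%), 19 lower with DAR (0.123%) and 17 higher (0.11%); with quantile normalization 9 of 29 were higher. Metallothioneins and HMOX1 were lower with DAR: MT1H changed by -0.62 with DAR and 6.34 with ATO, a difference of -6.95 ± 0.71 (adjusted p = 1.77e-05), and HMOX1 by 0.34 and 4.51, a difference of -4.18 ± 0.59 (adjusted p = 0.000768). In 8226/S at equal dose MT1H changed by -1.04 with DAR and 3.68 with ATO, and HMOX1 by 0.97 and 3.12. NQO1 differed by -1.62 ± 0.31 (adjusted p = 0.0215) and GCLM by -1.64 ± 0.31 (adjusted p = 0.0215). TNFRSF17 was higher with DAR by 1.50 ± 0.27 (adjusted p = 0.0116), with changes of -0.32 in U266, 0.04 in MM.1s, 0.06 in KMS11 and -0.36 in 8226/S. HLA-E (1.12 ± 0.22, adjusted p = 0.0247), CALML4, a calmodulin-like gene (1.87 ± 0.35, adjusted p = 0.0215), and RGS2 (1.90 ± 0.39, adjusted p = 0.0383) had a higher change with DAR too. Their changes with ATO were -0.97, -1.49 and -1.45. With DAR they were 0.15, 0.38 and 0.45, and limma called none of these (adjusted p = 0.48 to 0.709). FOS differed by 4.48 ± 0.68 (adjusted p = 0.00166). The FOS signal after DAR was 155 in U266, 18 in MM.1s, 22.5 in KMS11 and 479 in 8226/S, and control 1 was low too, so this difference also holds the difference between the untreated arrays. In these differences MT1H kept its call without each line. HMOX1 was lost without MM.1s (adjusted p = 0.0792), FOS without U266 (0.074) and TNFRSF17 without MM.1s or KMS11 (0.122 to 0.238). NQO1 was lost when any one line was left out (0.0512 to 0.132), and GCLM (0.074 to 0.23), HLA-E (0.113 to 0.157), CALML4 (0.074 to 0.23) and RGS2 (0.0989 to 0.274) without U266, MM.1s or KMS11. For SFXN3 the difference was 1.65 ± 0.34 (adjusted p = 0.0407) and for CCNP 2.17 ± 0.46 (adjusted p = 0.0407). The SFXN3 difference was 0.005 in KMS11, and limma did not call its change with ATO (-0.52, adjusted p = 0.232). SFXN3 was lost at adjusted p = 0.199 to 0.366 without U266, MM.1s or 8226/S, and CCNP at 0.21 to 0.366 without U266, MM.1s or KMS11. Without single lines the count was 10 (U266), 7 (MM.1s), 12 (KMS11) and 41 (8226/S).

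**Figure D5:**
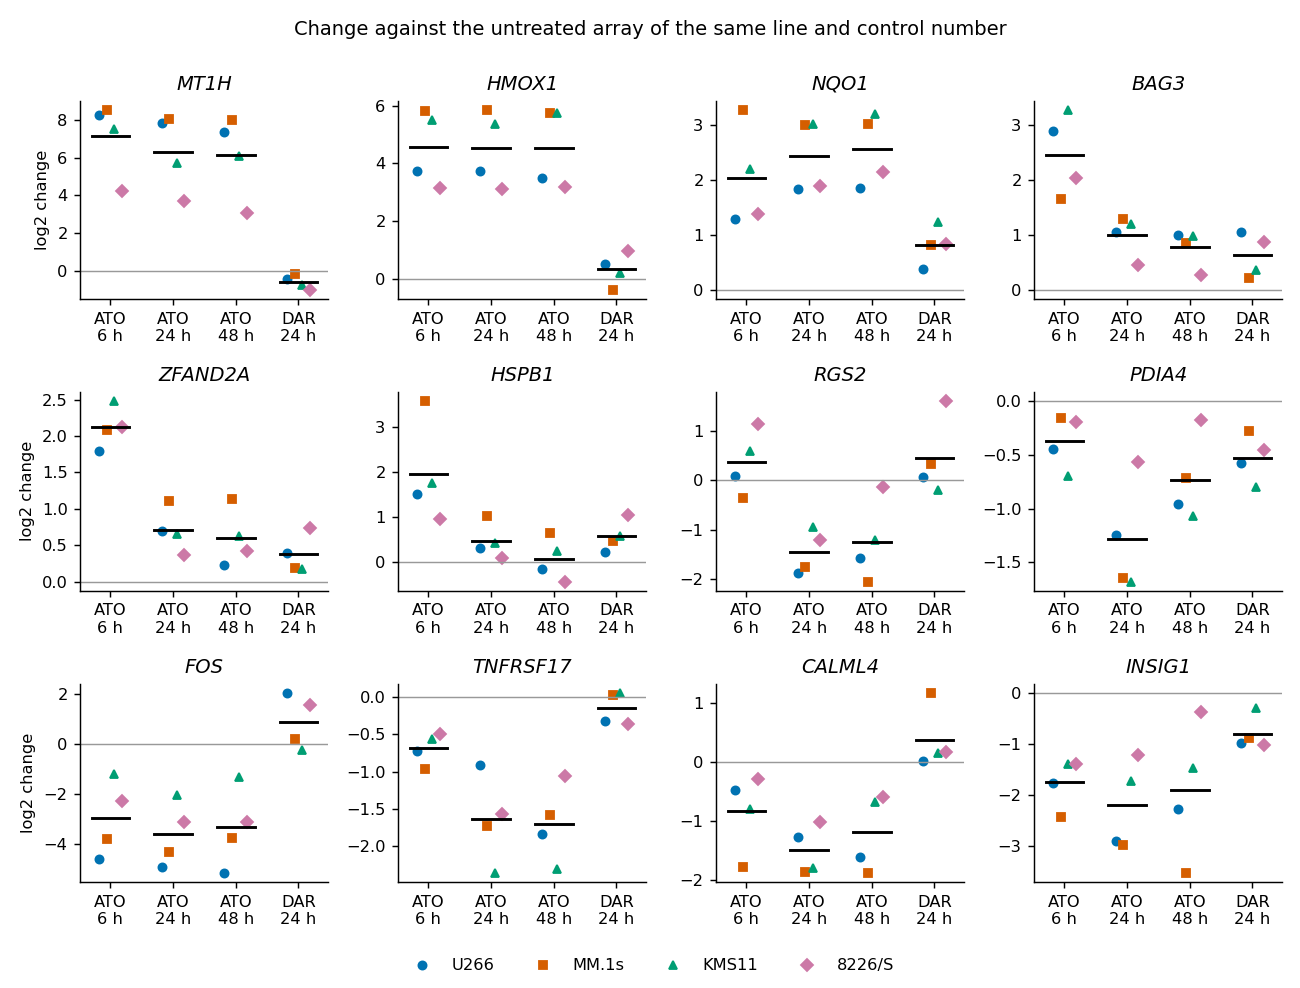
Log2 change of 12 genes after ATO for 6, 24 and 48 h against control 2 and after DAR for 24 h against control 1, with 1 point per line and a black bar at the mean of 4 lines. BAG3, ZFAND2A and HSPB1 are higher at 6 h than at 24 h of ATO, RGS2 and PDIA4 are lower at 24 h, and MT1H and HMOX1 change little with DAR.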

How the data were processed

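RNA of 4 myeloma lines was hybridised to Affymetrix arrays, 1 array per line and condition, 28 in all. The authors deposited a table of linear intensity values from GCOS, the Affymetrix scanner software, per the labels; its version and settings are not given in the sources used here. The mean after trimming 2% of values from each end was 500.1 on every array, so arrays had been scaled by a factor. Arrays hold no read depth, and their number limits the precision.

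From these intensities log2(value + 29) was taken, 29 being near the 24.83 percentile of all values. Of 54675 probe sets, 41097 had 1 gene symbol in the platform annotation, 1801 had several and 11777 none. Each of 19775 genes was read from its brightest probe set, and 15448 genes above the array median on at least 4 of 28 arrays were tested. Among probe sets without 1 gene, 7036 were tested apart, with 43 higher and 50 lower. limma 3.58.1 in R 4.3.3 was fitted to the 16 control 2 and ATO arrays with cell line as a term (lmFit, eBayes with a variance trend, two-sided, Benjamini-Hochberg over all genes), and an adjusted p under 0.05 made a call. ATO 24 h was compared with control 2, with 6 h and with 48 h, and with DAR 24 h as a difference of differences on 28 arrays. Arrays of the same line pair the samples: deviations from the condition means correlated at 0.642 to 0.862 in 24 same-line pairs and at -0.473 to -0.053 in 96 pairs of different lines. Deviations from a mean of 4 lines sum to 0, so values below 0 between lines follow in part from the calculation.

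Genes were named by rule: the 5 given markers NQO1, ME1, TNFRSF17, MZB1 and INSIG1, the 15 largest rises and 15 largest falls called with 1 sign in 4 lines, up to 6 called members per list by p-value, and up to 5 genes a direction in the other comparisons. Further members are named with their values and were chosen after these were seen. The comparison, its markers and the gene lists were chosen with earlier results of these data known. Some list members are not reported here. The fit was checked on made-up data with known changes. Promoters came from RefSeq on GRCh38.p14 and matched 12282 of the 15448 genes by symbol. Offsets of 8 and 100, other filters, quantile normalization, median centring, the mean over probe sets, other sets of arrays, no variance trend, no line term and leaving out each line were tried as alternatives.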

Additional observations from a re-analysis of the deposited data

Results flagged for a closer look

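A sample far from the others was looked for among the per-line changes of 89 named genes and the medians of 32 lists, by the gap to the nearest line over the range of the 4 lines; chance marks about 1 in 20 groups, and 4 were marked. For MSMO1 the change in 8226/S was -0.70, while the other 3 lines lay between -2.12 and -1.96. SQLE, an enzyme of the same pathway, had -0.61 in 8226/S and between -1.63 and -1.50 elsewhere. For NCOA4 the change in MM.1s was 0.12, with 0.52 to 0.55 in the other lines. The median of the 20 interferon genes was -0.97 in U266 and between 0.01 and 0.10 in the other lines. With 1 array per line and condition these values have no replicate check.

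Differences between conditions that passed limma's test of the difference itself were as follows. Between 24 and 6 h of ATO, ANXA4 (1.31), TBCK (1.04), PPP1R35 (0.83) and DYNLRB1 (0.53) were higher at 24 h. RGS2 (-1.81), HSPB1 (-1.48), BAG3 (-1.47), ZFAND2A (-1.41) and STAT4 (-1.35) were lower. Between 48 and 24 h TSPAN31 was higher by 0.73. Between DAR and ATO at 24 h, FOS (4.48), CCNP (2.17), RGS2 (1.90), CALML4 (1.87) and SFXN3 (1.65) had a higher change with DAR than with ATO. In KMS11 the SFXN3 difference was 0.005. MT1H (-6.95), MT1F (-5.94), LINC00304 (-5.53), MT1X (-5.50) and MT1HL1 (-5.40) were lower with DAR. DAR and ATO were set against different untreated arrays and, outside 8226/S, given at different doses.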

How the results depend on the processing

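The count of 630 genes at 24 h of ATO stayed within a factor of 1.5 with either offset, quantile normalization, median centring (433), no filter, the stricter filter and 28 arrays with each control kept apart (777). It was 403 with the mean over probe sets, 322 on the 8 arrays alone, 1157 with the 8 controls together, 274 without the variance trend and 121 to 762 without single lines, and 934 of 36703 probe sets were called one by one. Without the pairing by line (no replicate block) 14 genes were called at 24 h (11 higher, 3 lower), 0 against 6 h (215 at an unadjusted p under 0.05 in limma) and 0 for 48 h against 24 h (158). The count against 6 h ran from 2 to 46 without single lines, that for 48 h from 0 to 1, and that for DAR from 7 to 41; with median centring the 48 h count was 0 (1011 at an unadjusted p under 0.05 in limma). With the 8 controls together the median of all genes was 0.16, ACSS2 (0.11), PSMC2 (-0.039) and PSMB4 (-0.019) turned sign, and list medians were 0.29 for arsenic handling, -0.14 for fatty acid synthesis, 0.040 for transfer RNA synthetases, 0.69 for autophagy, -0.13 for the proteasome, -0.30 for the respiratory chain, 0.33 for NF-kB, -0.022 for death-promoting BCL2 members, 0.088 for PML and SUMO and 0.37 for other cell types. Glycolysis and hypoxia (-0.12 from -0.32), immediate early genes (-0.078 from -0.39), interferon (0.27 from -0.17) and G2/M (-0.12 from 0.046) moved by less than the spread between lines. With the mean over probe sets medians were 0.12 for transfer RNA synthetases, -0.11 for NF-kB, -0.092 for pro-survival BCL2 members and 0.082 for PML and SUMO, and with the stricter filter -0.072 for pro-survival members and 0.16 for other cell types. NF-kB had -0.038 with median centring. Without single lines NF-kB ran from -0.080 to 0.097, PML and SUMO from -0.055 to 0.066 and other cell types from 0.056 to 0.15. Of 89 named genes, 62 kept their call with the 8 controls together, 66 on the 8 arrays alone, 69 with the mean over probe sets, 76 with median centring and 11 without the line term. The cause of these shifts was not tested. Control 1 and control 2 differ between untreated arrays, and 1 array per line and condition limits every value.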

Other observations

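Several called genes outside the lists were chosen after their values were seen, among the 45 called genes of smallest p that no list held, and the calls of those named here held without each of the 4 lines. Heme and redox genes were among them. SLC48A1, which brings heme out of the lysosome, went from 753 to 3406 in U266, from 1076 to 4595 in MM.1s, from 591 to 2075 in KMS11 and from 1182 to 4099.6 in 8226/S. SLC48A1 changed by 1.93 ± 0.20 (adjusted p = 0.000137). ABCB6, a porphyrin transporter, had 1.44 ± 0.23 (adjusted p = 0.00336). PIR, an iron-binding nuclear protein, went from 728 to 2404 in U266, from 553 to 2323 in MM.1s, from 671 to 1658 in KMS11 and from 696 to 1960.4 in 8226/S. PIR changed by 1.61 ± 0.15 (adjusted p = 5.99e-05). NQO2, a paralog of NQO1, had 1.72 ± 0.24 (adjusted p = 0.00141) and AIFM2, the ferroptosis suppressor FSP1, 1.35 ± 0.20 (adjusted p = 0.00171). CLU, the secreted chaperone clusterin, went from 2039 to 5048 in U266, from 4377 to 15329.8 in MM.1s, from 1569 to 12540.3 in KMS11 and from 2171 to 5768 in 8226/S. CLU changed by 1.87 ± 0.23 (adjusted p = 0.000611). Every treated signal of SLC48A1, PIR and CLU was above every untreated one. PIR and AIFM2 were close to the threshold with the 8 controls together (adjusted p = 0.0478 and 0.0478).

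Genes of autophagy and of lysosomal signalling were among the called ones too. SMCR8, an autophagy regulator, rose by 0.96 ± 0.10 (adjusted p = 0.000175), EPG5, a tether of autophagosomes to lysosomes, by 0.88 ± 0.14 (adjusted p = 0.00286), CCPG1, a receptor for ER autophagy, by 1.16 ± 0.18 (adjusted p = 0.00299), and LAMTOR3, of the Ragulator complex, by 0.72 ± 0.10 (adjusted p = 0.00151). LAMTOR3 was not called with the 8 controls together (adjusted p = 0.413). Among falls CD48, a surface receptor of lymphocytes and plasma cells, went from 10309.6 to 6522 in U266, from 16859 to 4869 in MM.1s, from 6932 to 2724 in KMS11 and from 841 to 379 in 8226/S. CD48 changed by -1.22 ± 0.17 (adjusted p = 0.0013). It fell in each line, and the groups overlapped because 8226/S was low from the start. Of ER proteins TRAM2, of the translocon, had -0.87 ± 0.13 (adjusted p = 0.00171), VKORC1, the vitamin K epoxide reductase, -0.88 ± 0.14 (adjusted p = 0.0025), and SELENOT, a selenoprotein of the ER membrane, -0.79 ± 0.10 (adjusted p = 0.00102). IFNAR2, a chain of the type I interferon receptor, had -0.81 ± 0.12 (adjusted p = 0.00247). With the mean over probe sets neither IFNAR2 (adjusted p = 0.0511) nor LAMTOR3 (0.119) was called.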
